A study of Mus musculus with 8 samples.

Results

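Protocadherins are cell surface adhesion proteins of the cadherin superfamily, and the members described here are the 49 genes, of 14954 in the deposited table, whose symbol starts with Pcdh. They were chosen by name alone and fall into 4 alpha (Pcdha), 15 beta (Pcdhb) and 20 gamma (Pcdhg) genes of the clustered locus on chromosome 18, and 10 non-clustered genes. RNA was measured in 8 cultures of cortical-type neural progenitors derived from mouse embryonic stem cells of the A2 lox.Cre Bcl6 line, which carries Bcl6 under a tetracycline-inducible promoter. At differentiation day 12, 4 Bcl6-induced cultures had received 1 µg/ml doxycycline for 24 h and 4 control cultures had received DMSO for 24 h, and all 8 had earlier been grown with 400 ng/ml cyclopamine, which blocks the hedgehog pathway. Both groups carry the same transgene in the same line, and no culture had doxycycline without it, so effects of Bcl6 and of doxycycline cannot be told apart. The question was which genes change when Bcl6, a transcriptional repressor that promotes neurogenesis in the cortex, is raised. Bcl6 itself was at 391.5 ± 47.1 CPM (counts per 1000000) in the induced libraries and 6.49 ± 0.49 CPM in the controls (SD, n = 4 each).

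Clustered protocadherins give neurons a surface identity. Each alpha and gamma gene has its own promoter and a variable first exon that is spliced to constant exons shared by its whole cluster, while beta genes are single-exon genes. In mature neurons each cell uses a few of these promoters, chosen largely at random with the help of the architectural protein CTCF and cohesin, and the proteins then mediate self-recognition of axons and dendrites. Non-clustered protocadherins have their own loci, are expressed in restricted patterns in the embryo and brain, and act in cell sorting, axon growth and synapse formation.

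With all libraries under the deposited scaling, the non-clustered genes Pcdh7 and Pcdh1 were called higher after Bcl6 induction, and no member was called lower. The other 47 did not pass the test (limma over all 14954 genes, Benjamini-Hochberg adjusted p under 0.05). Pcdh1 passed narrowly (adjusted p = 0.048). As given below, its call was often lost when a library was left out or the processing changed. Pcdh8 and Pcdh18 were called lower under some such changes. The shares of all genes given next are for all libraries under the deposited scaling only. The share of all genes called higher was 4.55%, and 2 of 49 members is 4.08%; both were among the 10 non-clustered genes. The share of all genes called lower was 2.26%, and that called in either direction 6.81%. At an unadjusted p under 0.05, 7 members were higher and 2 lower, and 4 of the higher and both lower members were non-clustered. Of all 14954 genes, 2217 were higher and 1330 lower at that limit, or 23.7% in either direction. Of the 49 fitted log2 fold changes, which are on the log2(value + 1) scale and understate changes of low genes, 37 were positive and 12 negative, against 8280 positive of 14954 genes. Their median was 0.17, against 0.03 over all genes. It was 0.06 without control 1, 0.10 without induced library 4, and 0.09 after each library's trend on transcript length and GC content was removed (the length-GC correction). In 6 members every induced library lay above every control, a pattern found in 10.8% of all genes, and in none did every induced library lie below every control, found in 6.32% of all genes. In bulk RNA a difference in the number of cells of a type and a difference in RNA per cell cannot be told apart.

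**Figure D1:**
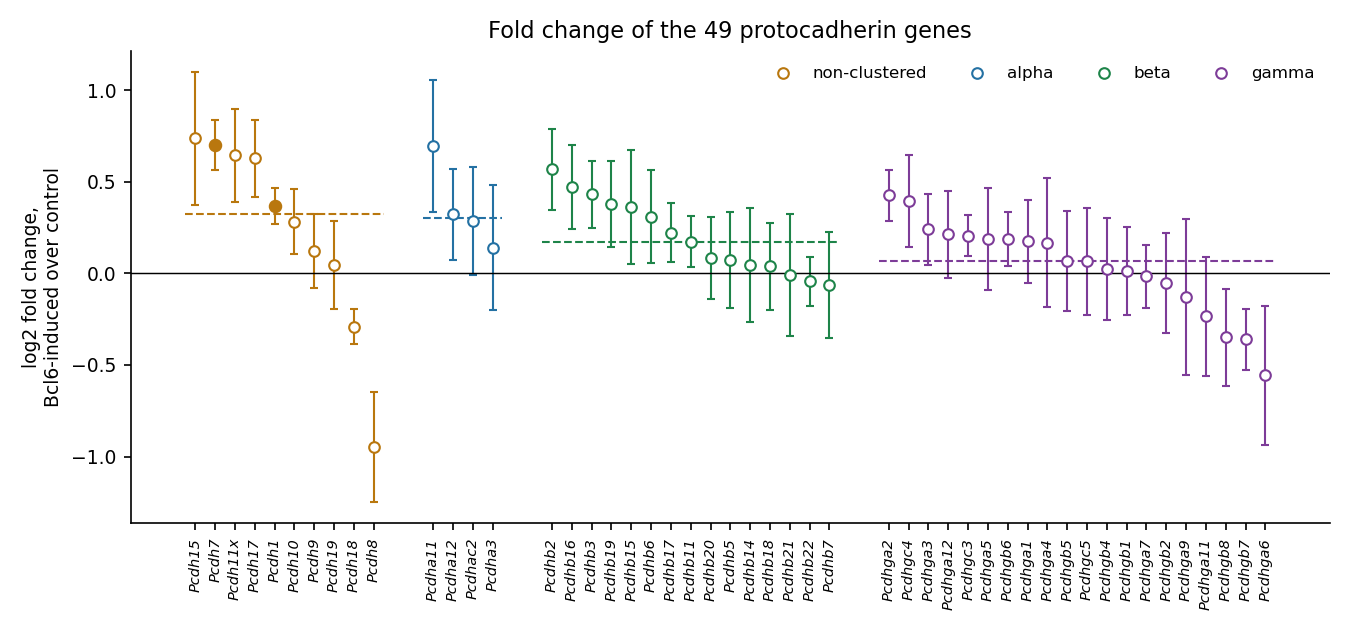
Log2 fold change of Bcl6-induced over control for the 49 protocadherin genes (points, with bars of 1 SE; n = 4 libraries per group), sorted within the non-clustered, alpha, beta and gamma genes. Filled points passed the test (Pcdh7 and Pcdh1) and dashed lines mark the median of each subgroup, from 0.07 for gamma to 0.32 for the non-clustered genes.

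Pcdh7, a delta-1 protocadherin of brain and heart, gave the clearest rise. Its gene lies on chromosome 5 at 57717967 to 58133230, plus strand (mm10, GENCODE annotation). It measured 29.8, 25.7, 32.3 and 29.3 CPM in induced libraries 1 to 4, against 14, 18.7, 17.7 and 22.4 CPM in controls 1 to 4. The groups did not overlap, and these values rest on 283 to 448 reads in the induced libraries and 132 to 213 reads in the controls. The log2 fold change was 0.70 ± 0.14 (SE), with an adjusted p of 0.015. The call was lost without induced library 1, where the log2 fold change was 0.69 and the adjusted p 0.058, and it held in the other 7 single leave-outs.

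Pcdh1, a delta-1 protocadherin of epithelia and vessels, lies on chromosome 18 at 38185914 to 38212053, beyond the gamma cluster and on the opposite strand to it. It measured 33.5, 32.8, 30.7 and 28.3 CPM in induced libraries 1 to 4, against 23.6, 22.2, 23.7 and 27.7 CPM in controls 1 to 4. Here too the groups did not overlap, but induced library 4 and control 4 differed by less than the spread within either group. The log2 fold change was 0.37 ± 0.10 (SE) with an adjusted p of 0.048. The call was lost without induced library 1, 2 or 3 or control 2 or 3 (adjusted p of up to 0.17), and under either other scaling of the libraries (adjusted p of 0.066 and 0.077). After the length-GC correction the log2 fold change was 0.19 (adjusted p = 0.16).

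**Figure D2:**
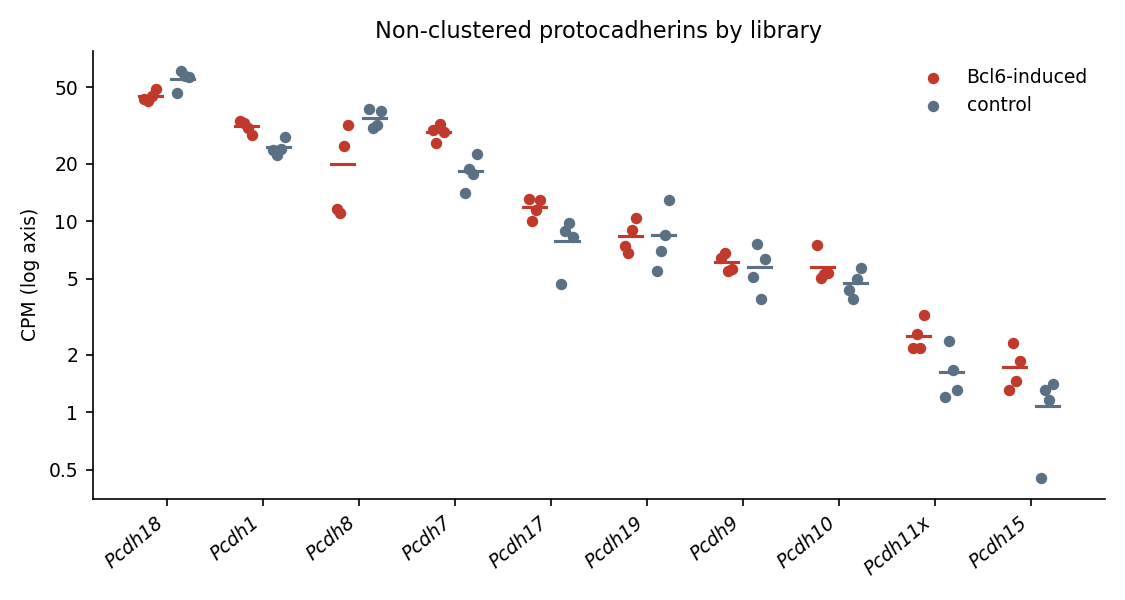
CPM of the 10 non-clustered protocadherins in each library (points; log axis), with the mean of each group as a bar. Induced and control libraries are separate for Pcdh1, Pcdh7 and Pcdh17, and Pcdh8 splits the induced libraries into a low and a high pair.

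Pcdh8 and Pcdh18 had the lowest fold changes among the non-clustered genes, and neither passed the test. Pcdh8, a delta-2 protocadherin known from paraxial mesoderm and from activated synapses (chromosome 14, 79766775 to 79771312, minus strand), measured 11.6, 11.1, 24.8 and 31.9 CPM in induced libraries 1 to 4. It was at 38.4, 30.7, 31.7 and 37.8 CPM in controls 1 to 4. Induced libraries 1 and 2 were far below all controls, induced library 3 was below them too, and induced library 4 lay among the controls. The log2 fold change was -0.95 ± 0.30 (SE), adjusted p = 0.086. Pcdh8 was called lower without induced library 4 (log2 fold change -1.23, adjusted p = 0.024) and after the length-GC correction (adjusted p = 0.031). Hes5, a Notch target of radial glia named here after its values were seen, also split the induced libraries, at 0.20, 0.30, 6.06 and 6.12 CPM in induced libraries 1 to 4, against 13.8 to 23.1 CPM in the controls. The 12 radial glia markers in the table summed to 1159, 1172, 1514 and 1500 CPM in induced libraries 1 to 4, against 1643 to 2015 CPM in the controls. Not every marker shared the split. Emx2, Fabp7, Nes, Notch1, Pax6, Prom1 and Vim also had both low values in induced libraries 1 and 2. Hes1, Sox2 and Lhx2 did not, and Lhx2 was the marker called higher. Slc1a3 was nearly level across the induced libraries, from 83.8 to 89.4 CPM. The split was not particular to Pcdh8 and these markers. The cadherin superfamily genes Celsr2 and Fat3 also had their low values in induced libraries 1 and 2. The neuronal markers Nefl and Nefm had their high values there. The share of all genes with either pattern was not counted. The part of radial glia in the Pcdh8 values was not tested.

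Pcdh18, a delta-2 protocadherin of embryonic mesenchyme and brain (chromosome 3, 49743296 to 49757325, minus strand), was the most abundant member. It measured 43.7, 42.6, 45.4 and 49 CPM in induced libraries 1 to 4, against 46.9, 60.9, 57.2 and 57 CPM in controls 1 to 4. Every induced library was below controls 2, 3 and 4, and control 1 fell within the induced range. The log2 fold change was -0.29 ± 0.09 (SE), adjusted p = 0.091. Without control 1 it was -0.37 and was called lower (adjusted p = 0.0095), as it was after the length-GC correction (adjusted p = 0.0081).

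The upstream sequences of Pcdh7, Pcdh8 and Pcdh18 are shown because they belong to the clearest rise and to the lowest fold changes among the non-clustered genes. They come from RefSeq (GRCm38.p6) and stop before the first annotated transcript start. Capitals mark CG dinucleotides. The windows are chr5:57717831-57717966 (plus strand) for Pcdh7, chr14:79771313-79771562 (minus strand) for Pcdh8 and chr3:49757326-49757566 (minus strand) for Pcdh18.
Pcdh7: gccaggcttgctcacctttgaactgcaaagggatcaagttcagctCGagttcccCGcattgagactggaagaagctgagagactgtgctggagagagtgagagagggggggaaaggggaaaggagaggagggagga
Pcdh8: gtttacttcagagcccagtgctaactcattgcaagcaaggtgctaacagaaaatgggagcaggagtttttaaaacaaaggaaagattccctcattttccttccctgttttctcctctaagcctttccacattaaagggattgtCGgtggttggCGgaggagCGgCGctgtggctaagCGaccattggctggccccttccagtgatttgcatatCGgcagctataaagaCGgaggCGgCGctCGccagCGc
Pcdh18: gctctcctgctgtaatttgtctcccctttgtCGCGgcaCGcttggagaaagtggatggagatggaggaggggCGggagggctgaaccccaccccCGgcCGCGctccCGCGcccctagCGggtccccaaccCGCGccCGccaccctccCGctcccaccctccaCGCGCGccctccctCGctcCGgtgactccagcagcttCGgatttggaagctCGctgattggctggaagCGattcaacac
In the 250 bases before the RefSeq start, CG occurred 7 times for Pcdh7, 11 times for Pcdh8 and 23 times for Pcdh18, against a median of 6 over 32851 such windows. The core of the Bcl6 motif, searched as TTCCTNGAA on both strands, was in none of the 9 windows of 8 non-clustered members with an entry (Pcdh1 and Pcdh11x had none), and was in 1.31% of all windows. The looser TTCNNNGAA, which contains it, was in none of the 9 and in 7.02% of all windows.

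The remaining non-clustered genes, described after their values were seen, did not pass the test. Pcdh17, a synaptic delta-2 protocadherin, measured 13.1, 9.97, 11.5 and 12.9 CPM in induced libraries 1 to 4, against 4.71, 8.87, 9.78 and 8.22 CPM in controls 1 to 4. Its groups did not overlap, although induced library 2 and control 3 were nearly level, and control 1 was far below the other controls. The log2 fold change was 0.63 ± 0.21 (SE), adjusted p = 0.10. It was 0.40 without control 1, and the gene was called higher after the length-GC correction (adjusted p = 0.029). Pcdh11x, an X-linked delta-1 protocadherin, averaged 2.52 ± 0.50 CPM in induced libraries and 1.63 ± 0.52 CPM in controls (SD, n = 4 each; log2 fold change 0.64, adjusted p = 0.16). Pcdh15, a tip-link protein of inner ear hair cells, averaged 1.73 ± 0.45 CPM in induced libraries and 1.08 ± 0.43 CPM in controls (0.74, adjusted p = 0.24), and its fold change was 0.38 without control 1, which held 4 reads of it. Pcdh10, which binds the WAVE actin regulators, averaged 5.78 ± 1.14 CPM in induced libraries and 4.72 ± 0.76 CPM in controls. The delta-1 gene Pcdh9 averaged 6.09 ± 0.63 CPM in induced libraries and 5.74 ± 1.59 CPM in controls. Pcdh19, an X-linked gene mutated in an epilepsy of girls, averaged 8.39 ± 1.6 CPM in induced libraries and 8.45 ± 3.23 CPM in controls. Its fold change had no stable sign, as upper quartile scaling turned it from 0.05 to -0.006.

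Per kb of exon not shared with another gene, Pcdh18 also had the highest level of the non-clustered genes, at 8.42 CPM per kb in induced libraries and 10.3 CPM per kb in controls. Pcdh8 followed at 4.37 CPM per kb in induced libraries and 7.64 in controls, then Pcdh1 at 3.56 and 2.76 and Pcdh7 at 2.76 and 1.71, induced before control. Pcdh8 was therefore above Pcdh1 and Pcdh7 on this scale, although its CPM in induced libraries was below theirs. Pcdh15 was lowest, at 0.073 CPM per kb in induced libraries and 0.045 in controls, over exons that add up to 23.8 kb.

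**Figure D3:**
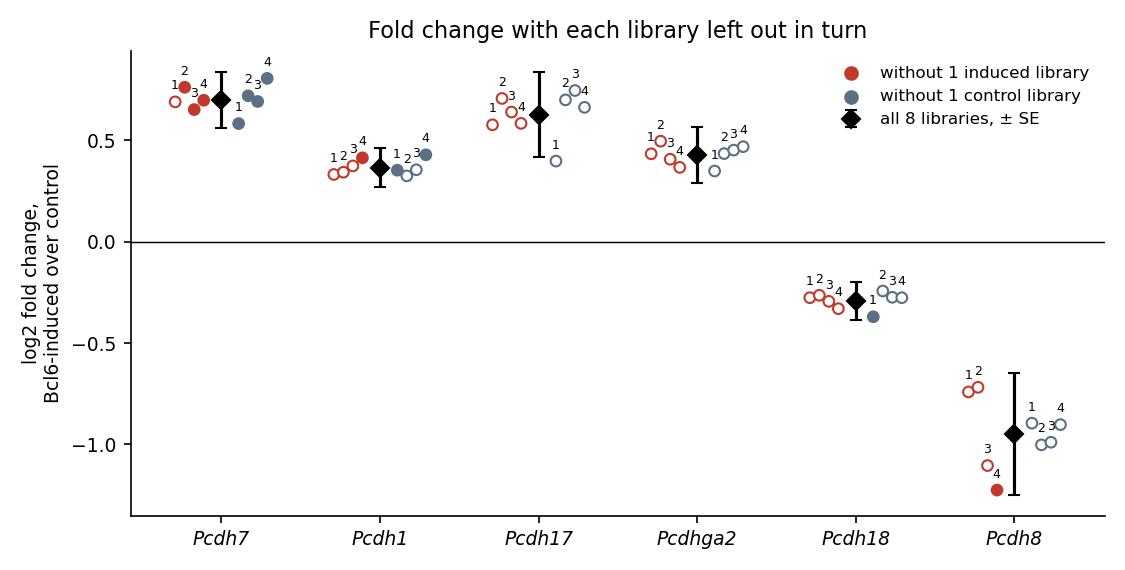
Log2 fold change of Bcl6-induced over control for 6 members with all 8 libraries (diamonds, bars of 1 SE) and with each library left out in turn (circles, numbered by the library left out; filled where the member passed the test). Pcdh7 kept its call in 7 of 8 leave-outs and Pcdh1 in 3 of 8, and all 6 members kept their direction.

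None of the 39 clustered genes passed the test, and 3 of them, Pcdhga2, Pcdhb2 and Pcdhb3, were higher at an unadjusted p under 0.05. Clustered genes were read less deeply than the non-clustered ones, with 5 to 448 reads per gene and library, and SEs of their log2 fold changes between 0.11 and 0.42. Their level is that of variable exons where reads in shared exons were not assigned, and the sources used here do not say how such reads, or those of near-identical paralogs, were counted. The annotation gives 14 alpha, 22 beta and 22 gamma genes, and 12 non-clustered ones; the 21 of these 70 genes without a row were not analysed here. The lowest mean in the table was 15.1 scaled reads, so genes with lower values may have been left out. The 49 members are those with a row, and why the other 21 had none was not tested.

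The 4 alpha genes with a row were Pcdha3, Pcdha11, Pcdha12 and Pcdhac2, over chromosome 18 from 36946105 to 37187657, plus strand. Pcdhac2, a C-type isoform, is needed for the spacing of serotonergic axons. All averaged below 2 CPM over the 8 libraries. Pcdha12, the most abundant, measured 2.51, 2.31, 1.55 and 2.36 CPM in induced libraries 1 to 4, against 1.6, 1.90, 1.25 and 2.21 CPM in controls 1 to 4. The groups overlapped, on 17 to 37 reads in induced libraries and 12 to 21 reads in controls, and the log2 fold change was 0.32 ± 0.25 (SE; adjusted p = 0.46). The median log2 fold change of the alpha genes was 0.30, and their fold changes ran from 0.14 to 0.70. The median was 0.16 without control 1.

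The 15 beta genes spanned 37294812 to 37524479 of the same strand, and their mean levels ran from 1.18 to 13.4 CPM. The most abundant were Pcdhb16, Pcdhb17, Pcdhb18, Pcdhb19 and Pcdhb22, all in the distal part of the cluster. Pcdhb22, the most abundant, measured 12.5, 12.9, 15.7 and 11.6 CPM in induced libraries 1 to 4, against 11.9, 13.8, 16.3 and 12.4 CPM in controls 1 to 4. The groups overlapped fully and the log2 fold change was -0.04 ± 0.14 (SE; adjusted p = 0.88). Pcdhb22 and Pcdhb21 overlap over 455 bases on the same strand, so their reads can be shared. Per kb, Pcdhb22 was at 2.14 CPM in induced libraries and 2.21 CPM in controls, close to Pcdhb17 at 2.05 and 1.74. Pcdhb2 and Pcdhb3, named after their values were seen, had groups that did not overlap. Pcdhb2 measured 2.41, 2.66, 2.51 and 2.56 CPM in induced libraries 1 to 4, against 1.2, 2.15, 1.66 and 1.90 CPM in controls 1 to 4 (log2 fold change 0.57 ± 0.22, adjusted p = 0.14). Pcdhb3 measured 2.41, 3.11, 2.61 and 2.76 CPM in induced libraries 1 to 4, against 2.15, 1.70, 2.06 and 2.11 CPM in controls 1 to 4 (0.43 ± 0.19, adjusted p = 0.19). For both genes every induced library was above every control, on fewer than 40 reads per library. The median of the beta genes was 0.17, with 12 of 15 fold changes positive.

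The 20 gamma genes spanned 37661793 to 37841873, and 1 of them stood far above the rest. This was Pcdhgc3, a C-type isoform that is broadly expressed and linked to Wnt signalling through Axin1, with 30.2 ± 2.45% of the gamma sum in induced libraries and 28.5 ± 1.58% in controls (SD, n = 4 each). Pcdhgc3 measured 29.8, 27.8, 28.7 and 26.9 CPM in induced libraries 1 to 4, against 19.7, 25.8, 27.9 and 25.5 CPM in controls 1 to 4. The induced libraries lay within 3 CPM of each other and overlapped control 3, while control 1 was lowest. The log2 fold change was 0.21 ± 0.11 (SE; adjusted p = 0.29). It was 0.10 without control 1 and 0.09 after the length-GC correction. Pcdhga2 was the gamma gene with the smallest p, at 8.67, 7.62, 9.17 and 9.98 CPM in induced libraries 1 to 4, against 5.56, 6.66, 6.92 and 7.17 CPM in controls 1 to 4. Its groups did not overlap, and the log2 fold change was 0.43 ± 0.14 (SE; adjusted p = 0.091). Per kb of its own exon, Pcdhgc3 reached 8.37 CPM in induced libraries and 7.31 CPM in controls. Pcdhgc3 was thus near Pcdh18 in induced libraries (8.42 CPM per kb) and below it in controls (10.3 CPM per kb). The next gamma genes were Pcdhgb6 at 3.65 CPM per kb in induced libraries and 3.21 in controls, and Pcdhga2 at 3.44 and 2.56. The lowest was Pcdhga12 at 0.31 CPM per kb in induced libraries and 0.26 in controls. The C-type gene Pcdhgc4, which is needed for interneuron survival, averaged 5.15 ± 1.16 CPM in induced libraries and 3.99 ± 1.25 CPM in controls. Of the gamma fold changes 13 were positive and 7 negative, with a median of 0.07 and a range from -0.56 in Pcdhga6 to 0.43 in Pcdhga2.

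**Figure D4:**
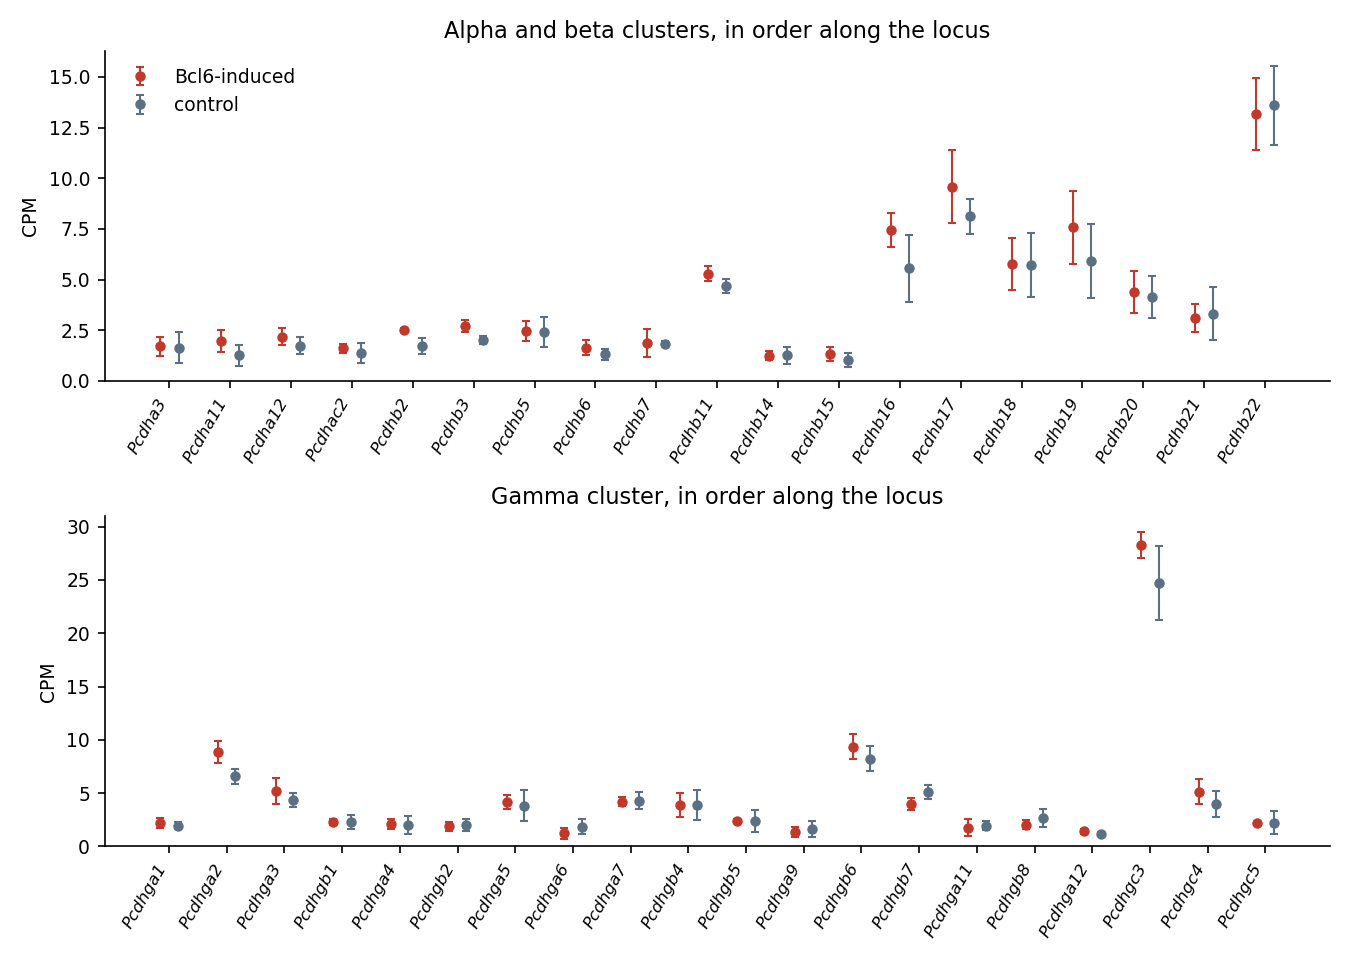
Mean CPM of the 39 clustered protocadherins in Bcl6-induced and control libraries (points, bars of 1 SD, n = 4), in their order along the locus. Pcdhb22 is the highest beta gene, Pcdhgc3 the highest gamma gene, and the bars of the groups overlap for most genes.

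Summed over a subgroup, the libraries of both groups overlapped. The non-clustered genes summed to 161.9 ± 13.9 CPM in induced libraries and 162.1 ± 15 CPM in controls, with higher means for Pcdh7, Pcdh1 and Pcdh17 beside lower ones for Pcdh18 and Pcdh8. The alpha genes summed to 7.48 ± 1.14 CPM in induced libraries and 6.02 ± 1.65 CPM in controls. The beta genes summed to 70.1 ± 7.49 CPM in induced libraries and 62.7 ± 8.90 CPM in controls, and the gamma genes to 93.9 ± 5.43 CPM and 87.2 ± 14.4 CPM (SD, n = 4 each). Control 1 had the lowest sum of the 8 libraries in each of the 4 subgroups. The clustered genes together summed to 168.2, 157.6, 172.9 and 187.2 CPM in induced libraries 1 to 4, against 119.6, 161.1, 172.8 and 169.8 CPM in controls 1 to 4. Control 1 was the lowest of the 8 libraries for 29 of the 49 members, a position it held in 25.9% of all genes. In that library the values relative to the mean of the 4 controls fell with transcript length (Spearman rho of -0.73 across the 11856 genes with a mean of at least 100 scaled reads and a known length, which are not independent replicates). Without control 1 the median log2 fold change was 0.30 for the non-clustered, 0.16 for the alpha, 0.16 for the beta and -0.10 for the gamma genes, against 0.32, 0.30, 0.17 and 0.07 with all libraries. After the length-GC correction these medians were 0.19, 0.22, 0.16 and -0.05, in the same order.

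**Figure D5:**
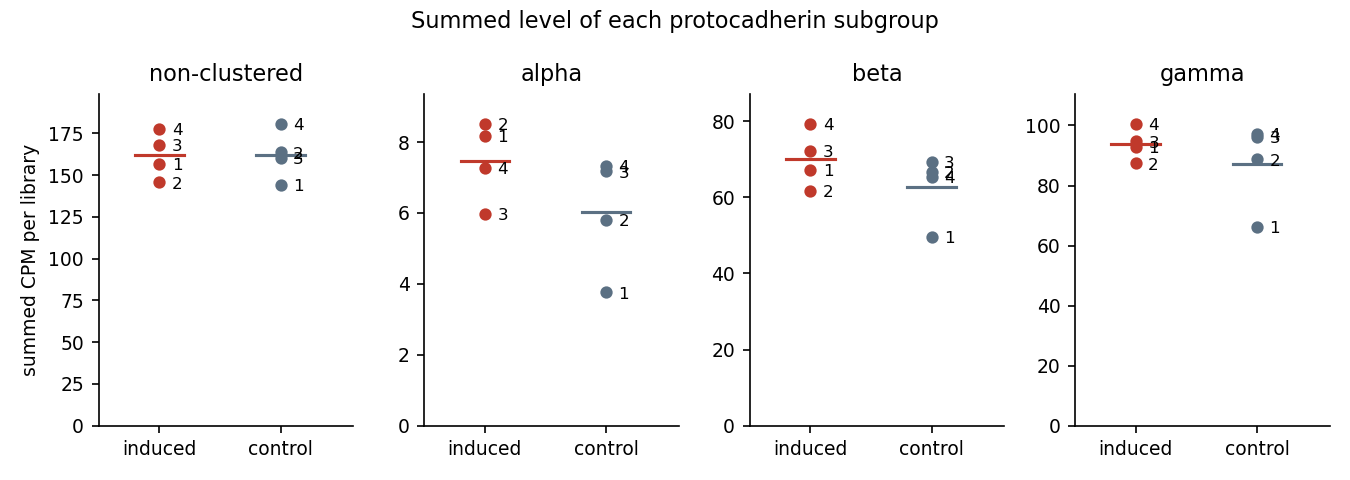
Summed CPM of the non-clustered, alpha, beta and gamma protocadherins in each library (points, numbered by library; bars mark group means). Control 1 is the lowest control in every panel, and the other 3 controls lie within or near the range of the induced libraries.

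The recovered depth was 10.33 to 15.02 M reads in induced libraries and 9.42 to 9.74 M in controls, so every induced library was deeper. Over all genes 681 were higher and 338 lower. Of the labelled progenitor type, 12 radial glia markers were read, with 5 lower and 1 higher after induction. The 12 neuronal markers summed to 1631 to 1942 CPM in induced libraries and 988 to 1231 CPM in controls, with 8 higher and none lower. Of 9 pluripotency markers 5 were higher and 1 lower, with sums of 1919 to 2267 CPM in induced libraries and 2035 to 2277 CPM in controls. Of 7 germ cell markers 5 were higher, with sums of 175.1 to 190.9 CPM in induced libraries and 98.2 to 114.3 CPM in controls. Fibroblast and mesenchyme markers, which the feeder cells could carry, gave no call among 9 genes (5 at an unadjusted p under 0.05), with sums of 611 to 754 CPM in induced libraries and 563 to 725 CPM in controls. Neural crest markers were higher in 2 of 5 cases, oligodendrocyte markers in 1 of 3, and 1 of 4 endothelial markers was lower. The part of these cells in the protocadherin values was not tested.

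Other cadherin superfamily genes, genes acting on the clustered locus, and protocadherin partners were read against the same background. Of 31 other cadherin superfamily genes 2 were higher and 2 lower, with a median log2 fold change of 0.01. At an unadjusted p under 0.05, 6 were higher and 6 lower. Cdh1, the epithelial cadherin also carried by pluripotent cells, rose to 352.6 ± 19.6 CPM in induced libraries, against 250.8 ± 26.6 CPM in controls (log2 fold change 0.50, adjusted p = 0.0081). The desmosomal cadherin Dsc2 rose to 29.6 ± 2.66 CPM in induced libraries, against 20 ± 3.36 CPM in controls (0.57, adjusted p = 0.025). The neuronal type II cadherins Cdh10 and Cdh18 fell. Cdh10 was at 6.51 ± 0.76 CPM in induced libraries against 9.26 ± 0.34 CPM in controls (-0.51, adjusted p = 0.036). Cdh18 was at 0.61 ± 0.25 CPM in induced libraries against 1.68 ± 0.23 CPM in controls (-1.46, adjusted p = 0.026). The Cdh18 values rest on only 3 to 10 reads per induced library and 13 to 18 reads per control. Of 23 genes for the architecture and silencing of the clustered locus, such as the cohesin subunit Rad21 and the corepressor Trim28, none passed the test, 2 had an unadjusted p under 0.05, and the median was 0.01. Rad21 averaged 480.5 ± 12.6 CPM in induced libraries and 501.4 ± 43.1 CPM in controls, and Trim28 874.5 ± 17.6 CPM and 865.2 ± 66.1 CPM. Of 25 partner and signalling genes 1 was called higher and none lower, with a median of 0.16. At an unadjusted p under 0.05, 9 were higher and none lower. Of all 14954 genes, 2217 were higher and 1330 lower at that limit, or 23.7% in either direction. In 8 of the 25 every induced library lay above every control, a pattern found in 10.8% of all genes. The gene called was Cyfip2, a subunit of the WAVE complex. It was at 138.4 ± 7.37 CPM in induced libraries and 102.9 ± 11.8 CPM in controls (0.43, adjusted p = 0.020).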

How the data were processed

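The authors deposited 1 table of 14954 genes, with processing by STAR 2.5.3a, HTSeq 0.9.1 and edgeR 3.20.1 on mm10 named in the submitters' processing notes with no role or order. Decimal commas had become column breaks (36 cells under 24 header names), so each line was rejoined and matched to its CPM cells. The authors' own statistics were not used. The values the authors deposited are a score, not raw counts: reads scaled to 19.93 M to 19.96 M per library and rounded up. They sit on multiples of a step of 1.33 to 2.12, which gave the read totals. Levels are CPM, the value over its library's total. Groups were compared on log2(value + 1) by limma (version 3.58.1, R 4.3.3) with a variance trend. Benjamini-Hochberg adjustment ran over all genes, with no filter or covariate. The procedure was tested on simulated data that held no trend on transcript length, so that test does not cover the trends of these libraries. Alternatives covered the pseudocount, a minimum mean, scaling, the replicate block, a length-GC correction, equal depth and single libraries left out. Tests for raw counts were not used on these rounded values. Libraries came from a stranded kit, per the labels' protocols; the strand setting of the counting is not given in the sources used here. Gene positions and lengths are from GENCODE M21 (GRCm38, the same assembly as mm10). The members and lists were chosen with earlier results of these data known. Values in every library are given for members that passed the test, for the most abundant member of each subgroup and for the 3 smallest p among the rest; others were added after their values were seen. Whether the 4 differentiations of a group were separate experiments is not stated, and p-values cover only the variation seen among these libraries.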

Additional observations from a re-analysis of the deposited data

Results flagged for a closer look

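In 3 of 108 groups of 4 libraries, each a member's or a subgroup's values in 1 condition, a single library stood apart from the other 3; chance flags about 1 in 20 such groups. Pcdh10 was at 7.47 CPM in induced library 1, against 5.01 to 5.36 CPM in the other induced libraries. Pcdhgb1 was at 2.76 CPM in induced library 2, against 2.06 to 2.16 CPM in the other induced libraries. Pcdhb16 was at 3.11 CPM in control 1, against 6.07 to 6.66 CPM in the other controls.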

How the results depend on the processing

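Across 16 alternatives, 227 of 251 values of the named members kept their direction and their side of the threshold. Many of these members were far from the threshold, so this share says little about the 2 calls. Pcdh7 kept its call in 7 of 8 leave-outs and in all 8 other alternatives. Pcdh1 kept its call in 3 of 8 leave-outs and in 3 of 8 other alternatives. The number of members called higher was 1 under median-of-ratios scaling, under upper quartile scaling, with the replicate block and with reads drawn down to equal depth (an alternative chosen after seeing the data), and 0 to 2 with single libraries left out, 0 being without induced library 1. The number called lower was 2 after the length-GC correction and 0 to 1 with single libraries left out. The 1 was Pcdh18 without control 1 and Pcdh8 without induced library 4. The share of all genes called in each alternative was not counted, so these numbers have no background beside them. The replicate block left Pcdh7 called (adjusted p = 0.022) and ended the call of Pcdh1 (adjusted p = 0.093). Under the block Pcdh8 had an adjusted p of 0.052. The labels number both groups 1 to 4 but do not say that a number marks a shared culture. The correlation of deviations from the group means ran from -0.03 to 0.37 for same-numbered libraries. It ran from -0.32 to 0.32 for the other combinations. With 4 libraries per group these values cannot decide whether the libraries were paired, and the block is given here only. The fold change of Pcdh19 was -0.006 under upper quartile scaling, -0.12 after the length-GC correction, and -0.14 to 0.27 over single leave-outs; that of Pcdh9 ran from -0.047 to 0.271 and that of Pcdhb22 from -0.131 to 0.044 over leave-outs. The cause was not tested. The median over all genes was 0.03 under the deposited scaling, 0.00 under median-of-ratios and -0.02 under upper quartile scaling. edgeR and DESeq2 were not run, and Pcdh11x, Pcdh15, Pcdha12, Pcdhb2 and Pcdhb3 gave no value above the minimum mean of 100 scaled reads. Depth limits the low members, with as few as 4 reads per library in the non-clustered and 5 in the clustered genes.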
